A study of Homo sapiens with 6 samples.

Results

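The response of MDA-MB-231 breast cancer cells to 200 nM PCI-24781 for 24 h was described against cells given DMSO, the solvent, for 24 h. MDA-MB-231 is an established human breast cancer line with a mesenchymal phenotype that lacks the oestrogen and progesterone receptors, and PCI-24781, also called abexinostat, is a pan-HDAC inhibitor. The series held 6 libraries of adherent cells in serum-supplemented DMEM, 1 library for each of DMSO, 100 nM and 200 nM at 24 h and at 48 h, and all 6 came from this 1 line. Expression was deposited as FPKM, which scales fragments by transcript length and library depth, for 16623 genes. A gene entered the comparison when its FPKM was at least 1 in DMSO 24 h or in 200 nM 24 h, which 11660 of the 16623 genes did. Changes are given as the log2 of the ratio of FPKM plus a pseudocount of 1, so that 1 is a doubling on that scale, and the change of a gene with a low level is understated. With 1 library on each side there was no replicate, no test and no p-value, and a gene is called raised or lowered only because its ratio reached 2-fold.

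Histone deacetylases remove acetyl groups from the lysines of histones and of many other proteins. Their inhibitors leave histones hyperacetylated, and genes that were silent or weakly used are often switched on while some highly used genes are switched off. In epithelial tumour cells such inhibitors are best known for induction of the cell cycle inhibitor CDKN1A, for arrest of the cell cycle and for expression of differentiation genes of other lineages.

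The line's own markers were abundant in both libraries. VIM, the intermediate filament of mesenchymal cells, had 1920 FPKM in DMSO 24 h and 1696 at 200 nM, and the receptor kinase AXL had 475 and 405. ESR1, the oestrogen receptor, was at 0.02 and 0 FPKM, PGR at 0.02 and 0.01, and the epithelial cadherin CDH1 at 0.25 and 0.37. Of the markers of other cell types, the 4 leukocyte markers found summed to 3.46 FPKM in DMSO 24 h and 5.74 at 200 nM, with CD3E at 0 and 0.04, and the 5 endothelial markers to 1.35 and 3.21, with CDH5 at 0.01 in both. The 6 fibroblast markers summed to 2.39 and 7.13, of which COL1A1 alone made 1.66 and 6.68, while DCN and PDGFRA were at 0.07 FPKM or less, and the part of such cells in the changes was not tested. In bulk RNA a change in the number of cells of a kind and a change of RNA per cell cannot be told apart.

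Of the 48 h libraries, 2 were not in the order of dose for the genes described here. Among the 523 genes raised at 200 nM 24 h, the library labelled 100 nM 48 h was below the library labelled DMSO 48 h in 441 and above it in 77, or 84.3% and 14.7%, when over all tested genes the shares were 52.9% and 46.6%. Among the 172 lowered genes it was above in 119 and below in 52. Neither library was used to choose these genes. DMSO 24 h was used, and in these genes it differed from DMSO 48 h. DMSO 48 h was above DMSO 24 h in 514 of the 523 raised genes, with a median change of 0.76. DMSO 48 h was below it in 155 of the 172 lowered genes, with a median of -0.40. Over all tested genes the median of DMSO 48 h against DMSO 24 h was 0. Time in culture, the labels and a property of 1 library cannot be told apart with 1 library per condition. Where a result is set against a 48 h control, the value for the other one is therefore in most places given beside it or as a count. Genes were chosen for a low or high value in DMSO 24 h or 200 nM 24 h, which by itself brings other libraries nearer, so what is left against the 48 h libraries is a description.

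At 200 nM 24 h, 523 genes were raised and 172 were lowered, which is 4.49% and 1.48% of the 11660 genes, or 3.04 raised genes for each lowered one. The remaining 10965 genes, 94.0%, changed by less than 2-fold, and the median change over all tested genes was 0.01. At least 4-fold changes were found for 61 raised and 7 lowered genes. The raised genes were weakly expressed, with a median of 1.63 FPKM in DMSO 24 h and 6.40 at 200 nM, and 200 of them were below 1 FPKM in DMSO 24 h. These 200 passed the filter only through 200 nM 24 h, where they are high, as 603 tested genes did, whereas of the 10932 genes at 1 FPKM or more in both libraries 323 were raised (2.95%) and 151 lowered (1.38%). Counts for gene lists are a description and are to be read against 4.49% and 1.48%. The lowered genes went from a median of 14.97 to 5.44 FPKM, around the median of 11.58 FPKM of all tested genes in DMSO 24 h. Taken against DMSO 48 h instead of DMSO 24 h, 200 nM 24 h had 101 raised genes, 87 of them among the 523, and 144 lowered genes, 58 of them among the 172. Against 100 nM 48 h it had 258 raised genes, 206 of them shared, and 207 lowered genes, 74 of them shared. Against each of the 3 libraries, 83 genes were raised and 49 were lowered.

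**Figure D1:**
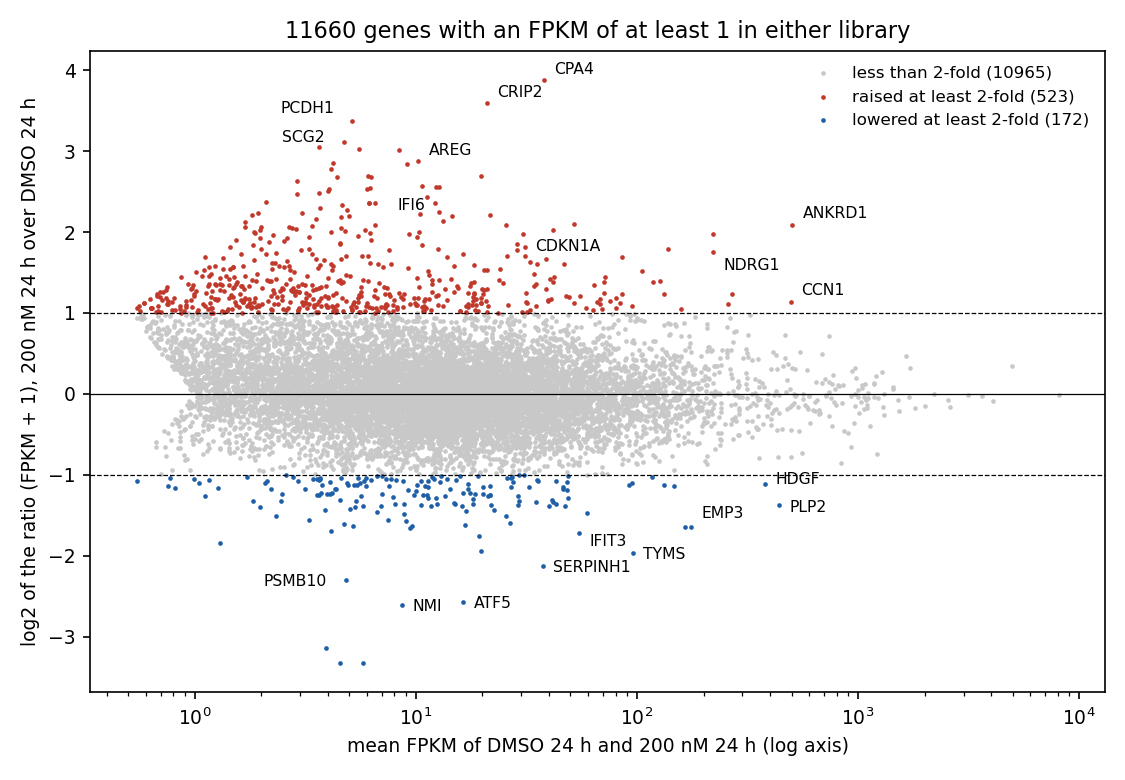
Change at 200 nM 24 h against the mean level, for the 11660 tested genes. The horizontal axis is the mean FPKM of DMSO 24 h and 200 nM 24 h on a log axis, the vertical axis the log2 of the ratio of FPKM + 1, and dashed lines mark 2-fold; 523 raised genes in red reach 3.88 and 172 lowered genes in blue reach -3.33, and most red points lie below 10 FPKM.

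CPA4 had the largest increase of the comparison. It codes for a secreted carboxypeptidase, lies at chr7:129932974-129964020 on the plus strand (hg19, as in the deposited files), and had 3.96, 22.1 and 72.0 FPKM with DMSO, 100 nM and 200 nM at 24 h, an 18.2-fold ratio. In the 48 h libraries it had 14.2, 7.0 and 39.6 FPKM in the same order, so that both 200 nM libraries were above all other libraries. Its promoter is shown because it holds 2 copies of the AP-1 site, the binding motif of FOS and JUN proteins. Promoter sequences are RefSeq, build GRCh38.p14, upstream of the first listed start, and matches were searched on both strands of the 250 bases before it; the AP-1 letters TGANTCA were in 3.56% of 9623 promoters of tested genes, and capitals mark the matches. The region is chr7:130293041-130293160, plus strand.
CPA4: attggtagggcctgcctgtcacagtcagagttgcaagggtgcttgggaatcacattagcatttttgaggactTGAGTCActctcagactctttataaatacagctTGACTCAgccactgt

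CRIP2, a LIM domain protein, had 2.37, 18.6 and 39.6 FPKM in that order of dose at 24 h. PCDH1, an adhesion protein of the protocadherin family, had 0.08, 3.21 and 10.2 FPKM in the same order, and about 5 fragments stood behind the first of these values and 669 behind the last. SCG2, a granule protein of neuroendocrine cells, had 0.19, 2.85 and 9.28 FPKM. All 3 were ordered by dose at 24 h, and all 3 stayed past 2-fold when 200 nM 24 h was set against either 48 h library.

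The other genes with the largest increases coded for proteins of mixed function. IL24, a cytokine of the IL-10 family, went from 0.43 to 10.6 FPKM, but DMSO 48 h had 10.05 and 100 nM 48 h had 2.15. NANOS1, a translational repressor of germ cells, went from 1.06 to 15.6, PMEL, a structural protein of melanosomes, from 0.27 to 8.20, and ROPN1L, a protein of the sperm tail and of cilia, from 0.31 to 7.99. LMCD1, a LIM domain cofactor, went from 1.48 to 16.8, and CYP1A1, the cytochrome P450 induced through the aryl hydrocarbon receptor, from 4.5 to 34.7. NANOS1, ROPN1L and CYP1A1 were 2.28, 2.30 and 2.87 above DMSO 48 h on the log2 scale, and 2.82, 2.62 and 2.73 above 100 nM 48 h. SULT1A3 went from 0 to 7.27 FPKM while its near-identical copy SULT1A4 went from 7.83 to 0, and their sum was 7.83 and 7.27, so neither change can be assigned to a gene.

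The most abundant raised genes included 4 targets of YAP and TEAD, the coactivator and DNA-binding factors of the Hippo pathway, which relays cell density and mechanical tension to genes of growth and matrix. ANKRD1 (chr10:92671857-92681032, minus strand, hg19), a nuclear ankyrin repeat protein, had 191, 482 and 816 FPKM with DMSO, 100 nM and 200 nM at 24 h and 285, 140 and 528 FPKM at 48 h. CCN2, the matricellular connective tissue growth factor, had 88.8, 240, 353, 205, 80.9 and 295 FPKM in the same order. In both genes the 2 libraries at 200 nM were the highest of the 6. CCN1, a related matricellular protein, had 310 FPKM with DMSO and 685 with 200 nM at 24 h, against 420 and 466 at 48 h. F3, tissue factor, the starter of coagulation, had 162 and 353 at 24 h and 169 and 255 at 48 h. Those 4 were raised of 20 tested genes on the YAP and TEAD list, 20% against 4.49% of all tested genes, and the remaining 16 were within 2-fold, including YAP1 itself at 51.8 and 29.4 FPKM. The list's median was 0.16, against 0.01 over all tested genes. ANKRD1 and F3 kept 2-fold against both 48 h libraries, and CCN1 and CCN2 against 100 nM 48 h only.

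The promoters of CCN2 and ANKRD1 are shown for the TEAD motif, GGAATG, which was in 9.21% of the 9623 promoters on either strand. CCN2 held 3 matches in 250 bases, of which 2 fall in the stretch printed (chr6:131951373-131951492, minus strand), and ANKRD1 held 2, of which 1 is printed (chr10:90921170-90921289, minus strand).
CCN2: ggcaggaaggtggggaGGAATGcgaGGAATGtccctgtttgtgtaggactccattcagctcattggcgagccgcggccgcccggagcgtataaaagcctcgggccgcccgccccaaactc
ANKRD1: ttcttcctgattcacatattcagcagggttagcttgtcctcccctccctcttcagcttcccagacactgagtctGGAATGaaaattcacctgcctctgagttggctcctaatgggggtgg

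OGFRL1 and NDRG1 were the other raised genes of highest level. OGFRL1 had 160, 264 and 379 FPKM with DMSO, 100 nM and 200 nM at 24 h. NDRG1, a gene of stress and differentiation that responds to hypoxia, had 101, 172 and 343 FPKM. NDRG1 had 528 FPKM in DMSO 48 h and 555 at 100 nM 48 h, above 200 nM 24 h, so its change turned to -0.62 and -0.69 against those libraries.

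CDKN1A (chr6:36644237-36655116, plus strand, hg19), the p21 inhibitor of cyclin-dependent kinases, was raised 3.71-fold. It had 13.2, 30.6 and 48.8 FPKM with DMSO, 100 nM and 200 nM at 24 h and 44.3, 25.8 and 52.9 FPKM at 48 h. Among the 5 tested CDK inhibitors, CDKN1C (p57) was also raised, from 0.65 to 2.72 FPKM, with 3.91 and 3.41 in the DMSO and 100 nM libraries of 48 h, so that its change was -0.40 and -0.25 against those. With CDKN1A, 2 of the 5 were raised, 40% against 4.49% of all tested genes. CDKN1C passed the filter only through 200 nM 24 h, and of the 4 at 1 FPKM or more in both libraries 1 was raised. CDKN1B, CDKN2C and CDKN2D had 23.3, 36.0 and 31.9 FPKM in DMSO 24 h and 30.1, 31.3 and 33.4 at 200 nM. CDKN2A and CDKN2B were at or below 0.15 FPKM in all 6 libraries. The CDKN1A promoter carries clustered GGGCGG boxes, the motif of SP and KLF factors; the 120 bases before its start (chr6:36678594-36678713, plus strand) hold 4, of which 2 overlap, and 68.96% of the 9623 promoters held at least 1 on either strand.
CDKN1A: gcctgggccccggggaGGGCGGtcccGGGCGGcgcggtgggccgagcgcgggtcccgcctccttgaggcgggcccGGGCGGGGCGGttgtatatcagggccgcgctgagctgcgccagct

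Among 12 genes widely used as markers of HDAC inhibition, 3 were raised, 25% against 4.49% of all tested genes, 0 were lowered and 10 had a change above 0, against 51.2% of all tested genes. The median was 0.63. CLU, the chaperone clusterin, went from 18.1 to 59.6 FPKM, and MT1X, a metallothionein, from 51.0 to 121. TXNIP, an inhibitor of thioredoxin, stood just under 2-fold at 68.2 and 132 FPKM. CLU had 50.5 and 34.4 FPKM in the DMSO and 100 nM libraries of 48 h, and MT1X had 129 and 113, so none of the 3 raised markers kept 2-fold against either library and MT1X turned to -0.09 against DMSO 48 h and stood at 0.10 against 100 nM 48 h. The other metallothioneins with an FPKM of at least 1 were within 2-fold, among them MT2A with 1391 and 1473 FPKM and MT1E with 197 and 162.

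Keratins are the intermediate filaments of epithelia, and of 10 tested 4 were raised, 40% against 4.49% of all tested genes, with a median of 0.94. Of the 10, 2 passed the filter only through 200 nM 24 h, and among the 8 at 1 FPKM or more in both libraries 3 were raised and the median was 0.65. KRT15, a keratin of basal cells, went from 0.36 to 3.98 FPKM. The hair keratins KRT81 and KRT86, which are neighbours on chromosome 12, went from 32.9 to 77.2 and from 2.62 to 7.04, and KRT80 from 24.7 to 56.8. The simple epithelial keratins KRT8 and KRT18 had 86.5 and 98.8 FPKM in DMSO 24 h and 61.5 and 106 at 200 nM. KRT19, a luminal marker as these are, had 20.62 and 41.25 FPKM, a change of 0.97 that stood just under the threshold. None of the 4 kept 2-fold against DMSO 48 h and 1 did against 100 nM 48 h.

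Of 12 tested tight junction genes, which seal the space between epithelial cells, 4 were raised, 33.3% against 4.49% of all tested genes, and 0 lowered, with a median of 0.76. CGN and TJP3 passed the filter only through 200 nM 24 h, and of the 9 at 1 FPKM or more in both libraries 2 were raised, with a median of 0.73. CLDN1, the barrier-forming claudin, had 4.60, 19.2 and 24.7 FPKM with DMSO, 100 nM and 200 nM at 24 h and 16.4, 4.81 and 31.0 FPKM at 48 h. CGN, the cytoplasmic adaptor cingulin, had 0.46, 2.88, 5.04, 2.04, 0.59 and 3.39 FPKM in the same order. F11R, the adhesion molecule JAM-A, went from 1.74 to 7.93 FPKM and TJP3, the scaffold ZO-3, from 0.09 to 2.22. In CLDN1 and CGN the libraries labelled DMSO 24 h and 100 nM 48 h were the lowest. None of the 4 kept 2-fold against DMSO 48 h and 3 did against 100 nM 48 h.

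Junctions anchored by catenins and the epithelial cadherin were listed separately. Of 12 tested desmosome and adherens junction genes, 1 was raised, 8.33% against 4.49% of all tested genes, and the median was -0.10. The raised gene was JUP, plakoglobin or gamma-catenin, which went from 3.02 to 17.8 FPKM, with 13.9 in DMSO 48 h and 12.9 at 100 nM 48 h. The plaque protein PKP3 had 3.01 and 1.07 FPKM and the epithelial adhesion protein EPCAM had 4.70 and 2.26. Of 13 tested mesenchymal genes and inducers of the epithelial-mesenchymal transition, 1 was raised, COL1A1, the collagen I chain, from 1.66 to 6.68 FPKM. That is 7.69% against 4.49%, and COL1A1 kept 2-fold against both 48 h libraries. The list's median was 0.41, and 0.14 among the 12 at 1 FPKM or more in both libraries. With DMSO 48 h as control the median turned to -0.04. SNAI1, a repressor of epithelial genes, had 0.29 and 1.57 FPKM, and TAGLN, a smooth muscle actin-binding protein, 13.3 and 7.22. The luminal markers of breast epithelium had 0 of 7 tested genes raised or lowered. Their changes ran from -0.82 to 0.97, the highest being that of KRT19.

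**Figure D2:**
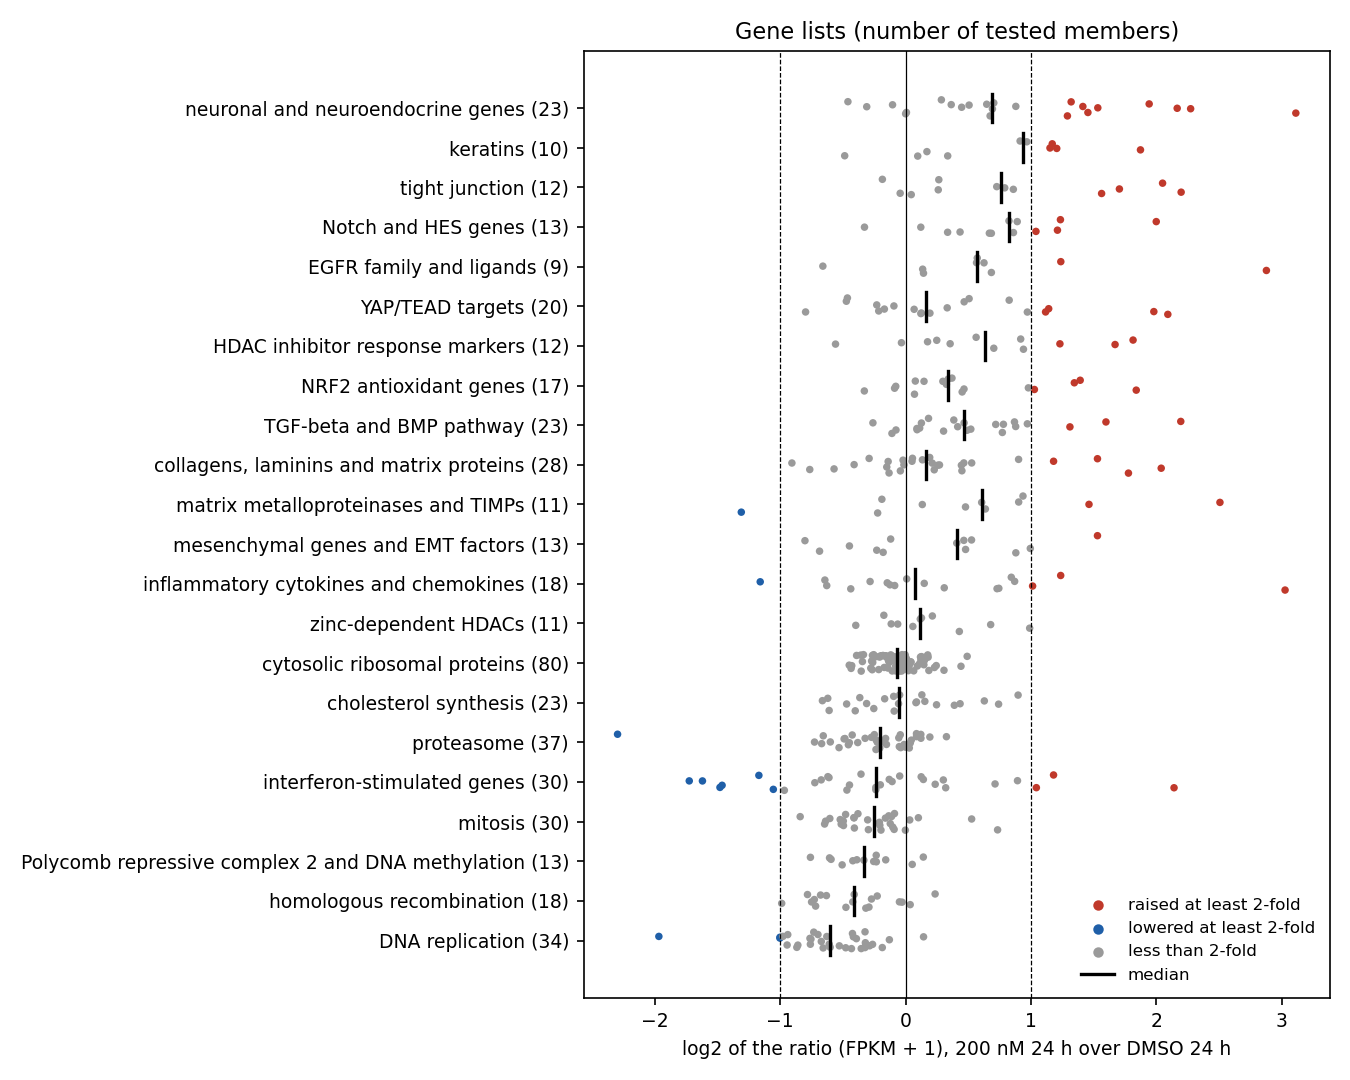
Change at 200 nM 24 h of the tested members of 22 gene lists. Each point is a gene, the horizontal axis is the log2 of the ratio of FPKM + 1 with dashed lines at 2-fold, black bars are list medians, and the vertical spread of points is only for legibility; medians run from 0.94 for keratins to -0.60 for DNA replication.

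Neuronal and neuroendocrine genes had 9 raised members. Of 55 listed genes 49 were found, 23 were tested and 0 lowered, so that 39.1% of tested members were raised, against 4.49% of all tested genes, with a median of 0.69. The other 26 found genes were below 1 FPKM in both libraries. Of the 23, 8 passed the filter only through 200 nM 24 h, among them 6 of the 9 raised, which could not have been lowered. Among the 14 at 1 FPKM or more in both libraries 3 were raised, 21.4% against 2.95% of all such genes, with a median of 0.48. SYP, synaptophysin of synaptic vesicles, had 0.65, 1.58 and 6.40 FPKM with DMSO, 100 nM and 200 nM at 24 h and 0.73, 0.77 and 2.65 FPKM at 48 h. It was highest in the 2 libraries at 200 nM and near 0.7 in both DMSO libraries. MAPT, the microtubule-binding protein tau, had 1.01, 4.56, 8.71, 4.07, 2.53 and 6.47 FPKM, and L1CAM, an axonal adhesion molecule, had 0.77, 2.92, 5.80, 4, 2.17 and 8.71. Other raised genes were the dendritic MAP2, from 0.11 to 2.04 FPKM, the vesicle GTPase RAB3A from 2.03 to 7.07, and the synaptotagmins SYT11, from 0.43 to 2.57, and SYT7, from 0.01 to 1.47. Of the 9, 4 kept 2-fold against DMSO 48 h and 8 against 100 nM 48 h. RAB3A had 5.84, 5.79 and 5.71 FPKM at 48 h with DMSO, 100 nM and 200 nM.

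Signalling genes that pattern tissues were next. In the Notch pathway, where ligands of the Jagged family on a neighbouring cell activate receptors that induce HES and HEY repressors, 4 of 13 tested genes were raised, 30.8% against 4.49% of all tested genes, and the median was 0.82. Of the 4, 2 passed the filter only through 200 nM 24 h, and among the 11 at 1 FPKM or more in both libraries the median was 0.68. The repressor HES1 had 0.94, 1.90 and 3.49 FPKM with DMSO, 100 nM and 200 nM at 24 h and 0.92, 0.68 and 1.90 FPKM at 48 h. HEY1 went from 0.19 to 1.80 FPKM and HES7 from 1.05 to 7.19. The receptor NOTCH3 went from 1.34 to 3.81, but had 4.13 and 5.43 FPKM in the DMSO and 100 nM libraries of 48 h, and its change was -0.09 and -0.42 against these. HES1 was the only one of the 4 that kept 2-fold against either 48 h library, and it did against both.

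Of 23 tested genes of the TGF-beta and BMP pathway 3 were raised, 13.04% against 4.49% of all tested genes, and 20 had a change above 0, when 51.2% of all tested genes did. The median was 0.47. Of the 23, 2 passed the filter only through 200 nM 24 h, GDF15 among them, which fixes a change above 0. Among the 21 at 1 FPKM or more in both libraries 2 were raised, with a median of 0.42. Those 2 are 9.52%, against 2.95% of all such genes. TGFBI, a matrix protein induced by TGF-beta, went from 1.14 to 8.79 FPKM, the ligand BMP2 from 1.32 to 6.02, and the stress-induced ligand GDF15 from 0.73 to 3.29. TGFBI and GDF15 had 9.06 and 10.2 FPKM in DMSO 48 h, so that their changes were -0.04 and -1.38 against it, while they stood at 0.87 and -0.87 against 100 nM 48 h. The receptors and SMAD proteins of the list were within 2-fold.

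Of 9 tested genes of the EGF receptor family and its ligands 2 were raised, 22.2% against 4.49% of all tested genes. AREG, the ligand amphiregulin, had 1.69, 9.5 and 18.8 FPKM with DMSO, 100 nM and 200 nM at 24 h and 8.66, 3.42 and 23.4 FPKM at 48 h, and it kept 2-fold against both 48 h libraries. ERRFI1, a feedback inhibitor of the receptor, went from 78.8 to 187 FPKM, with 171 in DMSO 48 h and 177 at 100 nM 48 h. ERBB2, the receptor HER2, had 21.4 and 13.2 FPKM. Downstream, 2 of 16 tested MAPK feedback genes were raised, 12.5% of them, the phosphatases DUSP1 from 22.0 to 47.7 FPKM and DUSP10 from 4.26 to 10.4. Of 14 tested AP-1 and immediate early genes 3 were raised, 21.4% of them: MAFK, a small MAF factor, from 5.82 to 13.9 FPKM, the zinc finger factor EGR1 from 0.66 to 3.82 and the nuclear receptor NR4A2 from 1.10 to 3.85. EGR1 passed the filter only through 200 nM 24 h and could not have been lowered. Among the 13 at 1 FPKM or more in both libraries 2 were raised, 15.4% against 2.95% of all such genes. EGR1 and NR4A2 had 4.11 and 3.89 FPKM in DMSO 48 h, which put them at -0.08 and -0.01 against it, and they stood at 0.23 and 0.31 against 100 nM 48 h. MYC went from 48.7 to 112 FPKM.

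Of 17 tested targets of NRF2, the transcription factor of the antioxidant response, 4 were raised, 23.5% against 4.49%, with a median of 0.34. SRXN1, which repairs oxidised peroxiredoxins, had 35.6, 46.1 and 91.9 FPKM with DMSO, 100 nM and 200 nM at 24 h and 36.4, 27.8 and 54.9 FPKM at 48 h. It was highest at 200 nM at both times and the only one of the 4 that kept 2-fold against either 48 h library. AKR1C3, a ketosteroid reductase, went from 4.08 to 17.2 FPKM and the haem oxygenase HMOX1 from 4.83 to 10.9.

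The genes of cholesterol synthesis had 0 raised and 0 lowered of 23 tested, with a median of -0.06. Those of fatty acid synthesis had 0 raised and 1 lowered of 17, or 5.88% lowered against 1.48% of all tested genes. The lowered one was ACSL5, an acyl-CoA synthetase, with 28.1 FPKM in DMSO 24 h and 12.1 at 200 nM, and it kept 2-fold against both 48 h libraries. Of 31 tested genes of glycolysis and hypoxia 2 were raised, 6.45% against 4.49% of all tested genes. They were NDRG1 and CA12, a membrane carbonic anhydrase. CA12 went from 6.09 to 14.2 FPKM but had 16.6 and 16.2 in DMSO 48 h and 100 nM 48 h, and so stood at -0.21 and -0.17 against these. Of 183 tested solute carriers 12 were raised and 1 lowered, 6.56% and 0.55% against 4.49% and 1.48%. Of the 12, 6 passed the filter only through 200 nM 24 h and could not have been lowered. Among the 166 at 1 FPKM or more in both libraries 6 were raised, 3.61% against 2.95% of all such genes. SLC29A4, a monoamine transporter, went from 1.72 to 10.1 FPKM and SLC45A1, a sugar transporter, from 0.37 to 3.33, while SLC5A6, the vitamin transporter for biotin and pantothenate, went from 15.1 to 4.19. SLC5A6 had 6.17 and 6.36 FPKM in DMSO 48 h and 100 nM 48 h, and so stood at -0.47 and -0.50 against these. Of the 12 raised solute carriers 0 kept 2-fold against DMSO 48 h and 2 did against 100 nM 48 h. None of the 26 tested lysosome genes reached 2-fold, although 18 had a change above 0. Their median of 0.21 turned to -0.14 with DMSO 48 h as control and to -0.19 with 100 nM 48 h.

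Genes of matrix and its breakdown moved in both directions. Among 11 tested metalloproteinases and their TIMP inhibitors, MMP15 and TIMP4 were raised and MMP14 was lowered, 18.2% and 9.09% against 4.49% and 1.48% of all tested genes. MMP15 and TIMP4 passed the filter only through 200 nM 24 h. MMP15, a membrane-bound metalloproteinase, had 0.50, 2.48 and 7.52 FPKM with DMSO, 100 nM and 200 nM at 24 h and 1.33, 1.10 and 3.64 FPKM at 48 h. MMP14, the related membrane enzyme that activates MMP2, had 59.3, 44.2, 23.4, 63.7, 69.0 and 50.1 FPKM in the same order. MMP15 was highest in the 2 libraries at 200 nM, MMP14 was lowest at 200 nM within each time, and both genes kept 2-fold against both 48 h libraries. TIMP4 went from 0.43 to 2.94 FPKM and TIMP2, an abundant inhibitor, stood at 181 and 348.

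Of 28 tested collagens, laminins and matrix proteins 4 were raised, 14.3% against 4.49% of all tested genes, and 0 lowered. Of the 28, 3 passed the filter only through 200 nM 24 h, TNC among them, and could not have been lowered. Among the 25 at 1 FPKM or more in both libraries 3 were raised, 12% against 2.95% of all such genes. THBS1, the matrix glycoprotein thrombospondin 1, went from 12.4 to 44.9 FPKM, TNC, tenascin C, from 0.51 to 5.2, COL5A1 from 5.63 to 14.02, and COL1A1 is given above. THBS1 and COL1A1 kept 2-fold against both 48 h libraries. In the plasminogen activator system, which generates plasmin at the cell surface, the activator PLAT went from 11.6 to 30.1 FPKM and the inhibitor SERPINE2 from 8.16 to 19.4, while the activator PLAU had 50.2 and 58.1 and its receptor PLAUR 48.0 and 31.7. Against DMSO 48 h and 100 nM 48 h, PLAT stood at 0.16 and 0.28 and SERPINE2 at 0.54 and 1.02. The integrins ITGB3 and ITGA7 were raised, from 0.98 to 4.62 and from 0.66 to 2.64 FPKM, 2 of 13 tested or 15.4%, both through the filter by 200 nM 24 h alone, and ITGB3 had 5.34 FPKM in DMSO 48 h, which put it at -0.17 against it, and stood at 0.72 against 100 nM 48 h.

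**Figure D3:**
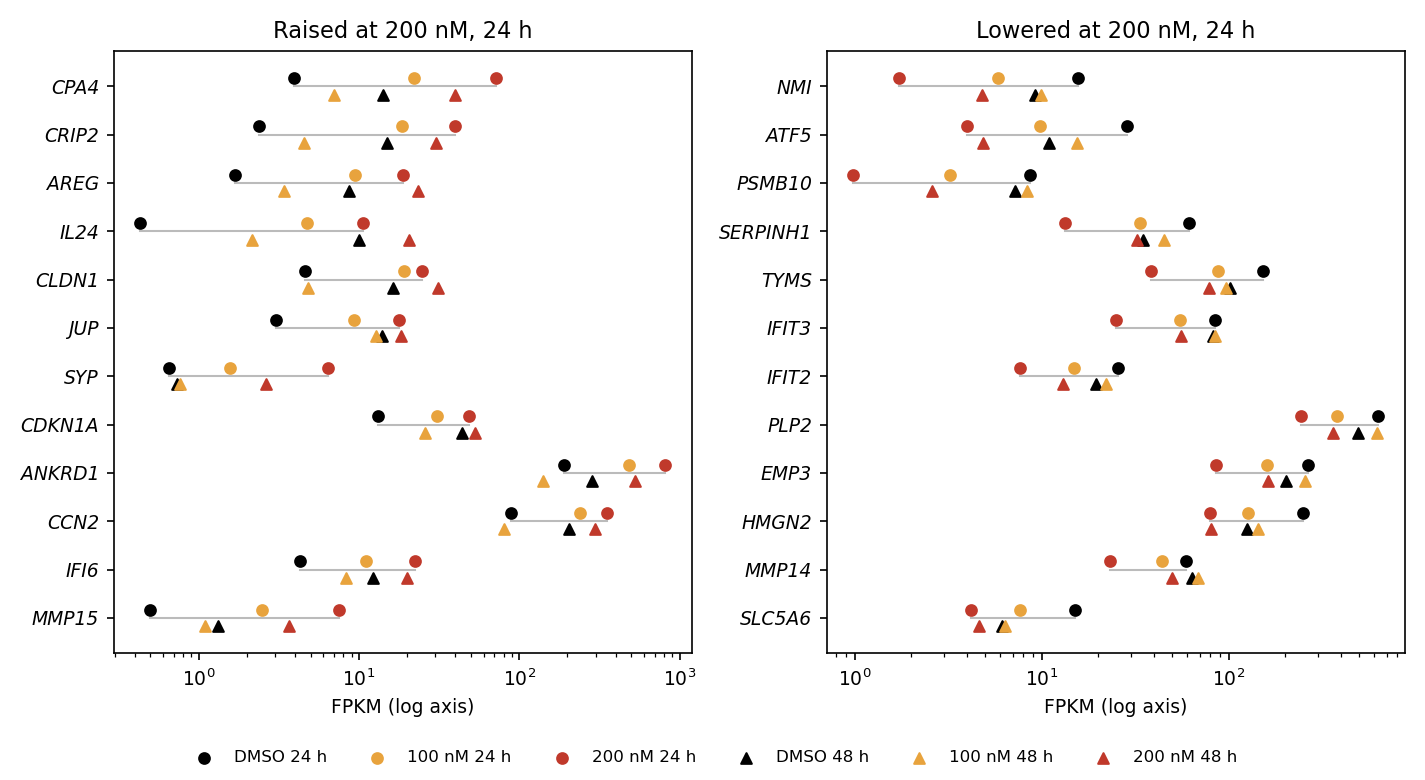
FPKM of 12 raised and 12 lowered genes in the 6 libraries, on log axes. Circles are the 24 h libraries and triangles the 48 h libraries, black for DMSO, orange for 100 nM and red for 200 nM, with 1 library each and hence no error bar, and grey lines join DMSO 24 h and 200 nM 24 h; CPA4 spans 3.96 to 72.0 at 24 h, and in the raised genes the orange triangle often lies left of the black one.

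Among the genes with the largest decreases were 2 that interferon induces and a stress regulator. NMI (chr2:152126982-152146430, minus strand, hg19), an interferon-induced partner of STAT proteins, had 15.6, 5.84 and 1.73 FPKM with DMSO, 100 nM and 200 nM at 24 h and 9.22, 9.94 and 4.80 FPKM at 48 h, which is 9.03-fold lower at 200 nM 24 h. ATF5, a stress-responsive transcription factor, had 28.8, 9.78, 4.01, 11, 15.4 and 4.87 FPKM in the same order, and PSMB10, an interferon-inducible subunit of the immunoproteasome, had 8.72, 3.24, 0.98, 7.18, 8.35 and 2.59. In all 3 the 2 libraries at 200 nM were the lowest at their time, and 200 nM 24 h was the lowest of the 6. All 3 kept 2-fold against both 48 h libraries.

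SERPINH1, the collagen chaperone HSP47, went from 61.5 to 13.3 FPKM, GTF3C6, a subunit of the RNA polymerase III factor TFIIIC, from 31.9 to 7.53, CAP2, an actin regulator, from 30.4 to 8.31, and NINJ2, an adhesion protein, from 6.85 to 1.42. These 4 kept 2-fold against both 48 h libraries. SERF1A went from 9.03 to 0 FPKM, and with its copy SERF1B the sum was 19.15 and 12.03. FMC1-LUC7L2 is a readthrough transcript of neighbouring genes that was listed at 2.59 and 0. Their changes are uncertain, since the reads of such genes can be assigned to either copy.

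The 6 lowered genes of highest level were of several kinds. PLP2, a membrane proteolipid, had 634, 380 and 243 FPKM with DMSO, 100 nM and 200 nM at 24 h. HDGF, a growth factor that binds chromatin, had 518, 376 and 240 FPKM, and HMGN2, a nucleosome-binding protein, had 250, 127 and 79.4. EMP3, a membrane protein, had 268, 161 and 85.2 FPKM, ARHGDIB, a guanine nucleotide dissociation inhibitor, 203, 146 and 91.3, and NRP1, a co-receptor of VEGF and semaphorins, 182, 141 and 82.7. All 6 were ordered by dose at 24 h, and PLP2 and EMP3 kept 2-fold against both 48 h libraries.

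Interferon-stimulated genes passed 2-fold in both directions. Interferons act through transcription factors that bind the interferon-stimulated response element, and induce proteins that block viral RNA. Of 30 tested genes 6 were lowered and 3 raised, 20% and 10% against 1.48% and 4.49%, with a median of -0.24. Of the 30, 3 passed the filter only through DMSO 24 h and could not have been raised. Another 3 passed only through 200 nM 24 h and could not have been lowered. Among the 24 at 1 FPKM or more in both libraries 5 were lowered and 2 raised, 20.8% and 8.33%. Of all such genes 1.38% were lowered and 2.95% raised. IFIT3, which binds viral RNA with other IFIT proteins, had 84.9, 55.1 and 25 FPKM with DMSO, 100 nM and 200 nM at 24 h and 83.0, 84.6 and 55.5 FPKM at 48 h. IFIT2 had 25.7, 14.8, 7.68, 19.6, 22.2 and 12.99 FPKM. In both genes the DMSO libraries and 100 nM 48 h were the 3 highest. IFI35, the partner of NMI, went from 13.5 to 4.19 FPKM, OASL from 10.3 to 3.09, OAS2, an oligoadenylate synthetase, from 3.43 to 0.97, and IFI44 from 16.7 to 7.53. IFIT1 had 24.4 and 23.6 FPKM and ISG15 had 57.9 and 52.8. Of the 6 lowered genes, 5 kept 2-fold against DMSO 48 h and 5 against 100 nM 48 h. IFI6, an inhibitor of apoptosis, went the other way, with 4.30, 11, 22.4, 12.2, 8.27 and 20.1 FPKM in the library order above, and GBP2, a guanylate-binding protein, went from 2.96 to 7.97 and IFI27 from 0.33 to 1.74. None of these 3 kept 2-fold against DMSO 48 h, and 1, IFI6, did against 100 nM 48 h.

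Promoters of interferon genes from both sides are shown for the response element core, GAAA followed after any 2 bases by GAAA, which was in 2.33% of the 9623 promoters on either strand. The lowered IFIT3 held 2 matches (chr10:89327805-89327924, plus strand), the raised IFI6 held 3, of which 2 are printed (chr1:27672193-27672312, minus strand), and the raised IFI27 held 2 (chr14:94110616-94110735, plus strand). The lowered IFI35 held 0 in its 250 bases.
IFIT3: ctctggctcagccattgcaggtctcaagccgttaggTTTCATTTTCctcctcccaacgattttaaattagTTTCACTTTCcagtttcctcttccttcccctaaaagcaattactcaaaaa
IFI6: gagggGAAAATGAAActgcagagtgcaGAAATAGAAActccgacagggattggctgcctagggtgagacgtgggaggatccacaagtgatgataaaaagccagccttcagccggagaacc
IFI27: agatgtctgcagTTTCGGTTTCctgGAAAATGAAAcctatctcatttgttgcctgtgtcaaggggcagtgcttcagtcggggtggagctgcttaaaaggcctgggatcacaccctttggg

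Other immune genes were mixed. Of 16 tested genes of MHC class I presentation, PSMB10 was lowered and HLA-F, a nonclassical class I chain, was raised from 1.18 to 4.40 FPKM, 6.25% each way, while HLA-B had 55.4 and 98.9. MICA, a stress ligand of the natural killer receptor NKG2D, had 21.6, 29.2 and 59.2 FPKM with DMSO, 100 nM and 200 nM at 24 h and 25.6, 21.5 and 33 FPKM at 48 h, and kept 2-fold against both 48 h libraries. Of 18 tested cytokines and chemokines 3 were raised and 1 was lowered, 16.7% and 5.56% against 4.49% and 1.48% of all tested genes. Of the 3, 2 passed the filter only through 200 nM 24 h. IL24 is described above. The chemokine CXCL8 went from 11.6 to 28.7 FPKM and IL1A from 0.13 to 1.28, but DMSO 48 h had 64.1 and 2.82, which put them at -1.13 and -0.74 against it, and they stood at 0.17 and 0.45 against 100 nM 48 h. The lowered gene was CSF3, the granulocyte growth factor, with 1.5 and 0.12 FPKM, from about 17 and 1 fragments. CSF3 passed the filter only through DMSO 24 h and could not have been raised. Among the 13 cytokines and chemokines at 1 FPKM or more in both libraries 1 was raised and 0 lowered. That is 7.69% raised, against 2.95% of all such genes.

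DNA replication was the list with the lowest median. All 34 genes listed were tested, 33 had a change below 0, and the median was -0.60, against 5668 below 0 of 11660 tested genes and a median of 0.01. Only 3 passed 2-fold, 8.82% against 1.48%. TYMS (chr18:657604-673499, plus strand, hg19), thymidylate synthase, which makes the thymidine nucleotide for DNA, had 153, 88.2 and 38.4 FPKM with DMSO, 100 nM and 200 nM at 24 h and 102, 97.4 and 79.1 FPKM at 48 h, and was 3.98-fold lower at 200 nM 24 h. MCM5 and MCM6, subunits of the replicative helicase, had 39.5 and 41.4 FPKM in DMSO 24 h and 19.2 and 20.2 at 200 nM 24 h, so that both sat at the threshold. GINS2, a helicase cofactor, stood just short of it at -0.98, with 23.9 and 11.7 FPKM. MCM6 had 31.6, 28.6 and 33.3 FPKM at 48 h with DMSO, 100 nM and 200 nM. The list's median was -0.07 at 200 nM 48 h against DMSO 48 h, and 25 of the 34 were below 0 there. With 100 nM 48 h in place of DMSO 48 h it was -0.01, and 17 of the 34 were above 0. TYMS alone kept 2-fold against the 48 h libraries.

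The TYMS promoter (chr18:657533-657652, plus strand) is shown because it holds a match to TTTCCCGC, the motif of the E2F factors that drive genes of DNA synthesis, on the strand opposite to the gene; 2.27% of the 9623 promoters held it on either strand. MCM6 held 0 matches in its 250 bases.
TYMS: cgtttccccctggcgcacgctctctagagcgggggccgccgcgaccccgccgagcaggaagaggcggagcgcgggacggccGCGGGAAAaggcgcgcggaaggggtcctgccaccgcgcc

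Most listed genes of homologous recombination and of mitosis had a change below 0, and 0 reached 2-fold. Of 18 tested genes of homologous recombination 0 were raised or lowered and 16 were below 0, with a median of -0.41. Of 30 tested mitotic genes 0 were raised or lowered and 26 were below 0, with a median of -0.25. For DMSO 48 h against DMSO 24 h the medians were -0.34 for homologous recombination and -0.19 for mitosis. That for DNA replication was -0.34. DMSO 24 h is the control in these comparisons too. CCNB1 and CCNA2, the cyclins of mitotic entry, had 138 and 67.6 FPKM in DMSO 24 h and 88.1 and 43.1 at 200 nM, whereas CENPF, a kinetochore protein, had 21 and 35.6. Of 20 tested p53 targets CDKN1A alone was raised, 5% against 4.49% of all tested genes, and the median was -0.05. Among 13 tested BCL2 family genes, which set the threshold of apoptosis, 0 reached 2-fold, the nearest being the activator BID with 13.4 and 6.80 FPKM, and BCL2L11 (BIM) had 4.16 and 7.70.

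Zinc-dependent deacetylases are the enzyme family that the drug inhibits in part. All 11 zinc-dependent deacetylases were tested, and 0 were raised or lowered, with a median of 0.12. HDAC1 had 68.2 FPKM in DMSO 24 h and 74.1 at 200 nM, HDAC2 25.9 and 30.2, HDAC3 59.3 and 80.2, and HDAC6 10.9 and 10.0. HDAC5 came nearest to 2-fold with 4.42 and 9.76 FPKM, but had 13.1 in DMSO 48 h and 13.2 at 100 nM 48 h. Of the opposing acetyltransferases 0 of 12 reached 2-fold and 9 were below 0, with KAT6B at 5.62 and 2.77 FPKM and KAT2A at 27.5 and 16.5. Of 13 tested genes of Polycomb repressive complex 2 and DNA methylation 0 reached 2-fold and 11 were below 0, with a median of -0.33. DNMT1, the maintenance methyltransferase, had 79.3 and 52.2 FPKM, and its partner UHRF1 38.6 and 22.4. In DMSO 48 h and 100 nM 48 h, DNMT1 had 53.6 and 55.9 FPKM and UHRF1 22.7 and 21.1. Against those libraries 200 nM 24 h stood at -0.04 and -0.10 for DNMT1 and at -0.02 and 0.08 for UHRF1. KAT2A stood at 0.08 and -0.17 against them, and KAT6B at -0.57 and -0.77. Among 15 tested replication-dependent histones, H2BC5 was raised from 7.64 to 17.4 FPKM, 6.67% against 4.49% of all tested genes. Of 10 tested replication-independent histones 0 reached 2-fold.

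The shares called in lists of basic cell machinery stood on both sides of the overall 4.49% and 1.48%. Of 80 tested cytosolic ribosomal proteins 0 reached 2-fold, with changes between -0.45 and 0.49 and a median of -0.07, and of 77 tested genes of oxidative phosphorylation 1 was lowered, the readthrough gene ATP5MF-PTCD1 with 1.42 and 0.10 FPKM, which was at 0 at 100 nM 48 h; 1.30% of that list was lowered. Of 37 tested proteasome subunits PSMB10 was lowered, 2.70%. Of 27 tested ribosome biogenesis genes MYC was raised and UTP20, a factor of small subunit processing, was lowered from 11.6 to 4.18 FPKM. This is 3.70% each way, and 23 of the 27 were below 0. Of 17 tested heat shock chaperones and 15 reference genes 0 reached 2-fold, and HSPA8, the constitutive HSP70, had 1133 and 720 FPKM. Of 17 tested genes of the integrated stress response NUPR1, a stress-induced chromatin protein, was lowered from 2.14 to 0.40 FPKM, which is 5.88% of that list. Of 396 tested ZNF zinc finger genes 3 were raised and 2 lowered, 0.76% and 0.51%, below the 4.49% and 1.48% of all tested genes, and ZNF114 was the most abundant of the raised ones at 22.2 and 62.1 FPKM. Of 6 tested clustered protocadherins 0 reached 2-fold and all had a change below 0, with a median of -0.44. Of the 6, 2 passed the filter only through DMSO 24 h and could not have been higher at 200 nM. Among the 4 at 1 FPKM or more in both libraries the median was -0.33. Of 47 tested RAB GTPases 1 was raised, of 15 tubulins 1, of 14 potassium channels 1 and of 3 germ cell genes 1, which is 2.13%, 6.67%, 7.14% and 33.3%, while 0 of 15 KLF factors, 0 of 10 S100 genes and 0 of 5 HOX genes reached 2-fold. The raised tubulin and the raised germ cell gene passed the filter only through 200 nM 24 h and could not have been lowered. Among members at 1 FPKM or more in both libraries 0 tubulins and 0 germ cell genes were raised. PSMB10, NUPR1 and ATP5MF-PTCD1 passed only through DMSO 24 h and could not have been raised.

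A list of the genes that the study measured by RT-qPCR or western blot was chosen by its authors with these libraries known and is no independent sample. Of 22 found 17 were tested, 6 were raised and 0 lowered, 35.3% and 0% against 4.49% and 1.48% of all tested genes, with a median of 0.48. Of the 6, 4 passed the filter only through 200 nM 24 h, and among the 11 at 1 FPKM or more in both libraries 2 were raised and the median was 0.13. SYTL2 and TC2N, which hold C2 domains that bind membranes, went from 2.06 to 5.93 and from 0.12 to 1.46 FPKM, and SYT7, SYP, JUP and MMP15 are given above. RGS2, which switches off Gq proteins, had 4.70, 8.23 and 7.62 FPKM with DMSO, 100 nM and 200 nM at 24 h and 6.75, 5.08 and 11.2 FPKM at 48 h, and was 0.60 higher at 200 nM 24 h on the log2 scale. GNAQ had 16.2 and 12.9 FPKM at 24 h, PLCB3 35.5 and 34.5, MMP1 9.44 and 8.16 and FN1, fibronectin, 39.7 and 55.2. SYT1, MMP2, MMP3, CDH2 and NCAM1 were below 1 FPKM in both libraries. Of 23 tested genes of Gq and calcium signalling 0 reached 2-fold, with a median of 0.09. The median turned to -0.02 with DMSO 48 h as control and to -0.09 with 100 nM 48 h.

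The 100 nM library at 24 h lay between DMSO 24 h and 200 nM 24 h for 506 of the 523 raised genes and 165 of the 172 lowered genes, a place that choosing genes at least 2-fold apart in those libraries favours. Its median change against DMSO 24 h, which it shares with 200 nM as control, was 0.78 in the raised genes and -0.58 in the lowered ones. At 48 h, with no library in common, 498 of the 523 raised genes were higher at 200 nM than in DMSO 48 h, 23 were lower and 2 were equal, and the median change was 0.37. Over all 11660 tested genes that median was 0.0045. Of the 172 lowered genes 157 were lower, 12 higher and 3 equal, with a median of -0.32. Few were past 2-fold there, 18 raised and 3 lowered genes, when 0.206% and 0.06% of all genes tested at 48 h passed in those directions. With 100 nM 48 h in place of DMSO 48 h, 494 of the raised genes were higher at 200 nM 48 h, with a median of 0.66 and 149 past 2-fold, and 148 of the lowered genes were lower, with a median of -0.47 and 13 past 2-fold. The share of all tested genes on each side of 0 is not given for either 48 h pair. Nor is the share past 2-fold with 100 nM 48 h, so these counts are a description. The raised genes had a median of 6.09 FPKM at 200 nM 48 h and 4.30 FPKM in DMSO 48 h.

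**Figure D4:**
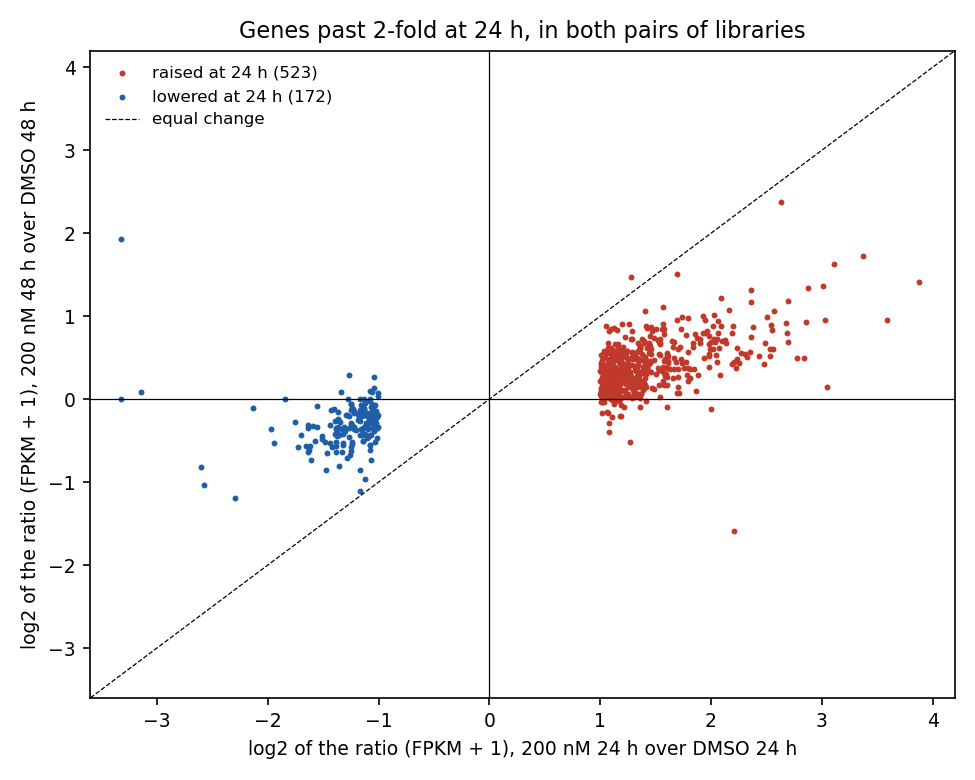
Change at 200 nM 48 h over DMSO 48 h against the change at 24 h, for the 523 raised and 172 lowered genes, both axes as the log2 of the ratio of FPKM + 1. The axes share no library; 498 red points lie above 0 and 157 blue points below 0 on the vertical axis, and most points lie nearer to 0 than the dashed line of equal change.

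The level of a gene was also taken from a library on neither side of the comparison. By its FPKM in DMSO 48 h, 65 of 344 tested genes below 1 FPKM were raised (18.9%), 315 of 4953 between 1 and 10 (6.36%), 131 of 5689 between 10 and 100 (2.30%) and 12 of 674 at 100 or more (1.78%). The share of lowered genes stayed between 1.16% and 1.595% over these classes. With 100 nM 48 h in its place the shares raised were 28.4%, 5.54%, 1.93% and 1.504%. A gene below 1 FPKM there entered the comparison only by being above 1 FPKM in DMSO 24 h or 200 nM 24 h, so the lowest class holds genes that differ between libraries by construction.

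**Figure D5:**
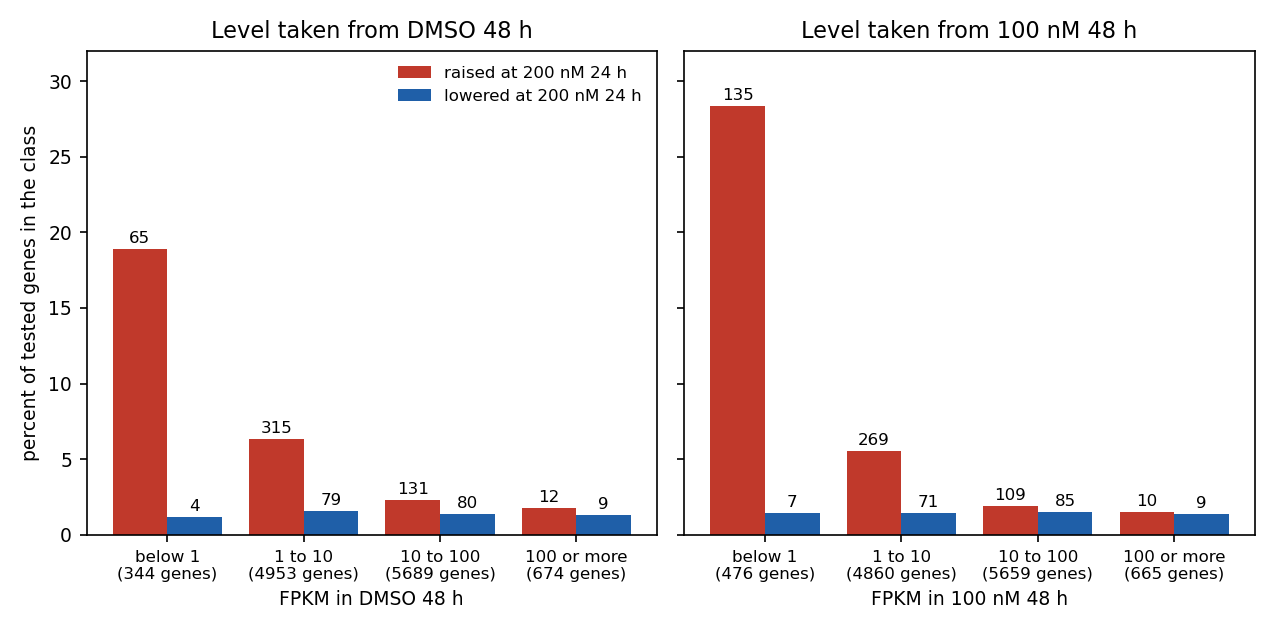
Percent of tested genes raised (red) and lowered (blue) at 200 nM 24 h, by the gene's FPKM in DMSO 48 h on the left and in 100 nM 48 h on the right; numbers over the bars count genes. The share raised falls from 18.9% to 1.78% on the left from the lowest to the highest class, and that lowered stays between 1.16% and 1.595%.

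Called genes were spread over the genome. On every autosome and on chromosome X some genes were raised, from 1.62% of tested genes on chromosome 20 to 5.56% on chromosome 6, and some were lowered. Of 515 raised genes with a next tested gene on their chromosome, 29 (5.63%) had a raised one, against 4.49% of all tested genes. Among such pairs were KRT86 and KRT81, GJA3 and GJB2, which code for connexins of gap junctions, DLX4 and DLX3, homeobox genes, and AREG and PARM1, all chosen here after their values were seen. Of the lowered genes 2 of 170 had a lowered neighbour, IFIT2 with IFIT3 and PMF1 with its readthrough PMF1-BGLAP. Of the tested genes 99.3% code for proteins, as did 517 raised and 170 lowered ones, and of 40 tested long noncoding RNAs 4 were raised and 1 lowered, too few to set against 4.49% and 1.48%. The median transcript length, taken as the midpoint of a gene's shortest and longest transcript, was 2515 bases in raised, 2358 in lowered and 2885 in all tested genes. Just inside the filter were ACCS, CDNF and COL17A1 at a highest FPKM of 1, and just outside it DZANK1, EFEMP2 and GRAPL-AS1 at 0.99. GJA3 and KDM7A were exactly 2-fold higher and counted as raised, and KLRC3 and APBA1, at 0.997 and 0.995, were not. RNH1 and ZNF428, at -0.996 and -0.995, were not counted as lowered.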

How the data were processed

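Libraries were prepared from total RNA, and per the labels and the submitters' processing notes the authors used Bowtie2, RSEM and hg19, with no version or role stated. The deposited values were FPKM with 2 decimals for 16623 genes, named by NCBI Gene ID, and 16585 IDs matched a symbol in the RefSeq table. Raw counts were not used here. Steps in the low values put depth at an estimated 15700000 to 18000000 fragments per library, so 3 fragments on a 2 kb transcript were worth 0.0838 FPKM in DMSO 24 h and 0.0872 at 200 nM 24 h.

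The change was log2 of the ratio of FPKM plus 1, over genes with FPKM of at least 1 in either library, and exactly 2-fold counted as reaching the threshold. Because each condition had 1 library, no test was run. The calculation was tested on simulated data. Tables were handled with pandas 2.3.3 and numpy 2.4.6 under Python 3.11.15, and plots were drawn with matplotlib 3.10.9. Alternatives were pseudocounts of 0.1 and 0.01, a filter that both libraries had to pass or no filter, rescaling to TPM or by median-of-ratios factors and folds of 1.5 and 4. Use of DMSO 48 h or 100 nM 48 h as control, and leaving out copies and readthrough genes, were chosen after seeing the data.

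The genes and the 61 lists were chosen with earlier results of these data known. Named genes were the 12 most raised and 12 most lowered, the 6 of highest level in each direction, up to 4 per list (all of a list under 12) and genes the study measured, passing over symbols that start with LOC. Other list members named because they passed 2-fold, or as examples beside them, were chosen after their values were seen. A promoter entry existed for 74.19% of raised and 72.67% of lowered genes, under 80%, so a comparison of promoters between sets was void and single promoters are shown as descriptions. Some list members are not reported here.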

Additional observations from a re-analysis of the deposited data

Results flagged for a closer look

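Of 113 named genes called at 24 h, 8 had a 48 h change, 200 nM over DMSO, of the opposite sign, each from 1 library a side, and the difference between times was not tested. On the log2 scale the lowered genes SERF1A, SULT1A4, MCM6 and UTP20 stood at 1.93, 0.089, 0.073 and 0.0068 at 48 h. The raised genes HES7, HMOX1, RAET1G and RAB3A stood at -0.12, -0.039, -0.034 and -0.028. SERF1A has a near-identical copy, SERF1B, and the other 7 values were within 0.12 of 0.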

How the results depend on the processing

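The numbers of raised and lowered genes were 880 and 283 with a pseudocount of 0.1, 938 and 298 with 0.01, 1463 and 888 at 1.5-fold and 61 and 7 at 4-fold. They were 323 raised with FPKM of at least 1 in both libraries, 855 raised after rescaling to TPM, 101 raised against DMSO 48 h and 258 raised against 100 nM 48 h, where the numbers lowered, 151, 227, 144 and 207, stayed within 1.5 times of 172. Without the filter they were 523 and 172, with median-of-ratios factors 472 and 207, and without copies and readthrough genes 514 and 166. Rescaling shifted the median of all tested genes by -0.06 with median-of-ratios factors and by 0.03 with TPM.

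Changes of sign among called named genes came only from the choice of control library. Against DMSO 48 h, NDRG1 was at -0.62, MT1X -0.092, CDKN1C -0.40, CA12 -0.21, EGR1 -0.084, NR4A2 -0.012, TGFBI -0.039, GDF15 -1.38, NOTCH3 -0.093, CXCL8 -1.13, IL1A -0.74 and ITGB3 -0.17. Against 100 nM 48 h, NDRG1 was at -0.69, CDKN1C -0.25, CA12 -0.17, ATP5MF-PTCD1 0.14, GDF15 -0.87 and NOTCH3 -0.42. List medians depended on the control library too. Of 61 medians, 45 moved by more than 0.1 with DMSO 48 h as control and 46 with 100 nM 48 h. Among those that changed sign, glycolysis and hypoxia went from 0.21 to -0.23 and -0.29. MAPK feedback went from 0.31 to -0.06 and -0.007, and ribosome biogenesis from -0.21 to 0.24 and 0.32. The zinc-dependent deacetylases went from 0.12 to -0.13 with 100 nM 48 h. The cause was not tested. No paired analysis was possible because there was a single library per condition.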

Other observations

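Among symbol families with at least 8 tested genes, picked here after their values were seen, DNAAF genes, which assemble the dynein motors of cilia, had 3 raised of 8, TSPAN tetraspanins 4 of 15 and CYP cytochromes P450 3 of 14, with 0 lowered in each, when 4.49% of all tested genes were raised. Neighbouring raised pairs included NES with CRABP2, a neural intermediate filament and a carrier of retinoic acid, and EFEMP1 with CCDC85A.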
